A study of Mus musculus with 16 samples.

Results

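Dorsal skin of the mice labelled TERT-on was followed over 24 h after an injection of vehicle. All 8 arrays with that label were taken, of 16 in the series, 1 array per biopsy. There were 2 arrays at each of 0, 6, 12 and 24 h, numbered replicate 1 and replicate 2, and arrays of 1 number were taken as serial biopsies of 1 mouse. The mice were iK5-TERT animals aged 60 days, which carry K5tTA and tetop-TERT: the keratin 5 promoter drives the tetracycline transactivator in basal keratinocytes of the epidermis and follicle, and the transactivator drives Tert, the gene of the protein subunit of telomerase. Doxycycline in the drinking water had kept the transgene silent early in life and was then withdrawn, and the follicles had entered anagen, the growth phase. The vehicle was PBS, given after the 0 h biopsy according to the methods, and the TERT-off mice of the other cohort, of the same genotype and age, received doxycycline (8 µg/g) in its place. Each biopsy covered 3 cm2 of skin, from which the subcutaneous fat was removed. No uninjected mouse and none biopsied only once was among these groups, so the time of day, the injection, the handling and the earlier biopsies cannot be told apart, and where on the back each biopsy was taken is not given in the sources used here.

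A full-thickness skin biopsy is a wound, and wounded skin is known for chemokines that call in leukocytes, for immediate early transcription factors and for the stress keratins and small proline-rich proteins of activated keratinocytes. Skin also keeps a circadian clock, in which CLOCK and BMAL1 drive the Per, Cry and Nr1d genes that repress them in turn, together with output factors such as DBP and TEF. Injection and handling can raise glucocorticoids, hormones whose receptor induces a known set of genes in skin.

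One 0 h array, that of replicate 1, differed from the rest in RNA quality. For Gapdh it gave a 5′ to 3′ signal ratio of 0.0599, against 1.05 to 1.12 on the other 7 arrays, and its 5′ to 3′ actin ratio was 0.368, against 0.754 to 1.11. It also held 176 empty cells, against 44 to 97. Since it is 1 of only 2 arrays at 0 h, most genes named below are given with the values of both mice. Some gene lists are also read in replicate 2 alone, and the other changes are given only as differences over both mice. Keratinocyte and follicle markers were present, with summed intensities of 11020 to 14040 for 4 basal keratinocyte markers and 13820 to 22290 for 4 markers of the inner root sheath. The biopsies also held skeletal muscle, whose 5 markers summed to 10480 to 21750. The highest sum, at 0 h in replicate 2, lacks Ckm, which had no value on that array. In bulk skin, fewer cells of a type and less RNA per cell cannot be told apart.

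Intensities are linear dChip values per probe set, and differences are on the log2 scale after values under 7.71 were raised to it. In the limma fit, 44 of 25563 probe sets differed between 0 h and the mean of 6, 12 and 24 h at an adjusted p of 0.05, 10 of them higher and 34 lower at the later times. By gene, with 1 probe set for each of 12580 genes, 23 passed, 5 higher and 18 lower (0.183% of the genes tested). At 6 h 1 gene was higher (0.00795%) and 2 were lower (0.0159%), at 12 h 8 passed (0.0636%), 3 higher (0.0238%) and 5 lower (0.0397%), and at 24 h none was higher and 3 were lower (0.0238%). Those at 6 h were Cxcl13, Spred1 and Tert, and those at 24 h Ampd1, Spred1 and Tert. No probe set passed between 6 and 12 h, between 12 and 24 h, or between 12 h and the mean of 0 and 24 h, where 223, 662 and 2382 probe sets had an unadjusted p under 0.05. The counts from 0 h depended on the array of low quality: without it no probe set passed, and without replicate 2 at 0 h, which left that array as the only one at 0 h, 1124 did (869 higher, 255 lower). Both of these fits assume that the lone 0 h array varied as the other groups did. All 23 genes moved the same way in replicate 2 as in replicate 1. They were chosen by a test on both replicates, so this agreement was nearly fixed by the choice and is no separate support.

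**Figure D1:**
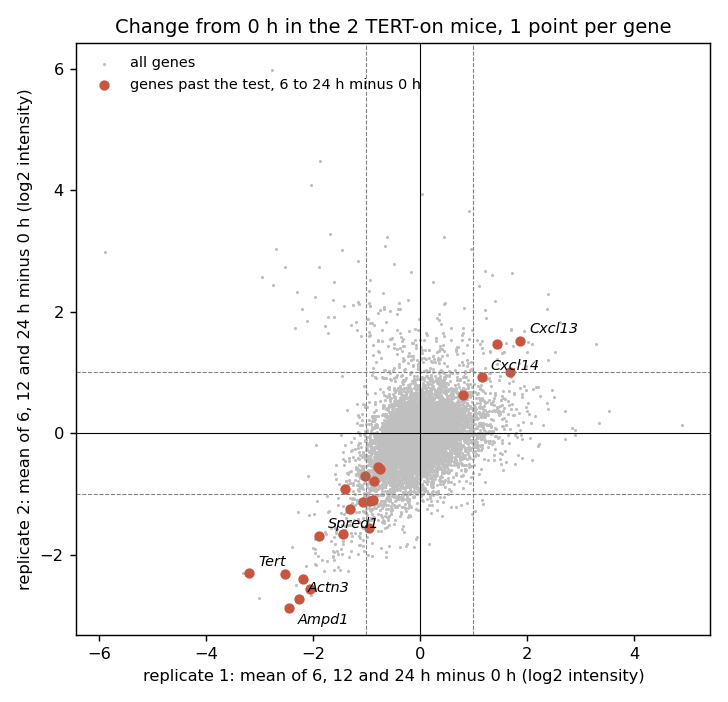
Change over the later times from 0 h in replicate 1 (horizontal axis) and replicate 2 (vertical axis), both as log2 intensity, with 1 point per gene. The 23 genes past the test (red) lie at the lower left and upper right, and the points at the upper left are genes with higher values in replicate 2 and lower values in replicate 1. Dashed lines mark 2-fold.

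The mice shared a small part of their larger rises and a larger part of their falls in value. In replicate 1, 341 genes were at least 2-fold higher over the later times and in replicate 2, 260 were, with 40 in both, which is 11.7% and 15.4% of these lists (0.32% of all genes). Of the genes at least 2-fold lower, 285 in replicate 1 and 351 in replicate 2, 124 were shared, which is 43.5% and 35.3% (0.992% of all genes). At 6 h alone, 82 genes were at least 2-fold above 0 h in both mice (0.657%) and 133 at least 2-fold below (1.07%), and at 24 h these were 20 (0.16%) and 54 (0.432%). Over the genes the 2 mice's changes correlated with r = 0.319, a description across genes that share the same pair of mice and 1 normalization.

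Tert itself fell in mice whose label says that the transgene stayed on. Its intensity at 0, 6, 12 and 24 h was 357, 40.4, 64.6 and 22.6 in replicate 1 and 216, 29.2, 47.8 and 60.1 in replicate 2. Both 0 h arrays lay above all 6 later ones. The difference between the later times and 0 h was -2.75 ± 0.34 (log2 ± SE, adjusted p = 0.00893). The later intensities, 22.6 to 64.6, remained above those of the TERT-off cohort at the same times, 8.32 to 16.1, so the arrays labelled TERT-on were low in Tert after 0 h without reaching the level seen under doxycycline. Krt5, the gene whose promoter drives the transactivator, stood at 4190.1, 3678, 5113 and 3835 in replicate 1 and 3439.7, 4014, 4138 and 3908 in replicate 2, a difference of 0.11 ± 0.12 that did not pass.

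Spred1, which encodes an inhibitor of Ras to MAP kinase signalling, gave the lowest adjusted p of the fall. It stood at 2073, 527, 679 and 489 in replicate 1 and 1557, 412, 516 and 529 in replicate 2. Every later array was at 0.236 to 0.339 of its own mouse's 0 h array, and the groups did not overlap. The difference was -1.79 ± 0.17 (adjusted p = 0.00149), and it passed at 6, 12 and 24 h each. Of 8 probe sets for Spred1, 7 passed. Fam98b, a neighbour on the chromosome, stood at 1142, 718, 611 and 660.0 in replicate 1 and 1073, 706, 764 and 704 in replicate 2, a smaller fall of -0.68 ± 0.11 (adjusted p = 0.043) in which the groups again did not overlap. The Fam98b call was kept in 5 of 19 alternatives and was lost with the replicate block as a fixed term. Meis2, a homeobox gene of the same neighbourhood, stood at 98.8, 52.8, 80.5 and 49.6 in replicate 1 and 79.4, 46.97, 56.5 and 49.9 in replicate 2 on its brightest probe set, where the difference of -0.69 ± 0.19 did not pass (adjusted p = 0.0929). Of its 4 probe sets, all lower after 0 h, 1 passed, with a difference of -1.26 (adjusted p = 0.0289). Of 16 neighbours of Spred1, 8 on each side, 12 were measured, and by the brightest probe set of each gene Fam98b alone passed. In the TERT-off cohort Tert, Spred1, Fam98b and Meis2 changed by -3.98, -1.95, -0.80 and -1.79.

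**Figure D2:**
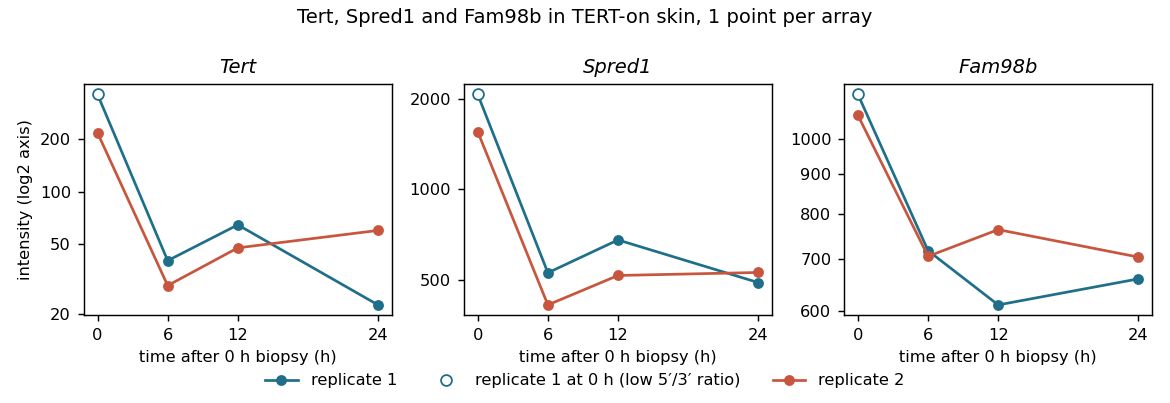
Intensity (log2 axis) of Tert, Spred1 and Fam98b against time in hours, 1 line per mouse and 1 point per array, with the 0 h array of low 5′ to 3′ ratio drawn open. In all 3 panels both 0 h points lie above every later point. The later points of the mice lie close together for Spred1 and Fam98b, while for Tert they part at 24 h (22.6 in replicate 1 and 60.1 in replicate 2).

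Of the 5 genes that rose, 2 encode chemokines, Cxcl13 and Cxcl14. Cxcl13, the largest rise of the 5, which encodes a chemokine that attracts B cells, stood at 55.6, 242, 317 and 110.0 in replicate 1 and 65.7, 226, 223 and 134 in replicate 2. All later arrays were above both 0 h arrays, with the highest values at 6 and 12 h and a partial return by 24 h. The difference was 1.70 ± 0.18 (adjusted p = 0.00573), and at 6 and 12 h it was 1.95 ± 0.22 and 2.14 ± 0.22 (adjusted p = 0.0105 and 0.0113). Cxcl14, a chemokine gene that epidermis expresses at rest, stood at 425, 999, 1166 and 728 in replicate 1 and 444, 725, 989.7 and 819.5 in replicate 2. Its groups did not overlap and both mice were highest at 12 h, with a difference over the later times of 1.04 ± 0.14 (adjusted p = 0.0136). The other probe set for Cxcl14, with intensities of 226 to 426, gave a difference of 0.0055 (adjusted p = 0.991). Of 26 cytokine and chemokine genes measured, these 2 passed and 21 had a positive difference, with a median of 0.53 against -0.05 over all genes. The list's median was 0.89 in replicate 1 and 0.24 in replicate 2. Both mice were higher at the later times for 17 of the 26 (24.2% of all genes), and both 0 h arrays lay below all later ones for 9 (8.39% of all genes). In replicate 2 alone, 0 h was below all later arrays for 11 (18.3%).

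At 6 h, 6 genes of this list were at least 2-fold above 0 h in both mice (0.657% of all genes): Cxcl13, Ccl2, Ccl7, Ccl12, Ccl20 and Ptgs2. None of the last 5 passed the test. Ccl2, whose product attracts monocytes, stood at 7.58, 85.7, 60.2 and 16.7 in replicate 1 and 12.8, 46.1, 34.3 and 20.9 in replicate 2. Ccl7, another monocyte attractant gene, stood at 19.2, 158, 96.6 and 42.8 in replicate 1 and 33.7, 89.1, 59.5 and 35.2 in replicate 2. In both genes the 24 h values were the lowest after 0 h. Ccl20, which encodes a ligand of CCR6, stood at 28.8, 152, 95.3 and 63.4 in replicate 1 and 37.4, 134, 63.6 and 51.8 in replicate 2. Ptgs2, the inducible cyclooxygenase gene, stood at 5.79, 65.1, 16.8 and 11.1 in replicate 1 and 6.59, 28.6, 23.4 and 11.05 in replicate 2. All 4 genes were highest at 6 h in both mice and were lower again at 24 h, and replicate 1 had the higher 6 h value each time. Il1b, the interleukin 1 beta gene, was likewise highest at 6 h, with 33.6, 109, 52.6 and 55.2 in replicate 1 and 35.7, 68.6, 45.3 and 60.3 in replicate 2. On the other side, both 0 h arrays lay above all later ones for 2 genes of the list (14.5% of all genes), Ccl11, the eotaxin gene, with 274, 169, 162 and 127 in replicate 1 and 294, 136, 125 and 83.98 in replicate 2, and Ccl27a, a chemokine gene of keratinocytes. Neither passed.

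Macrophage genes had higher values after 0 h in replicate 1 and not as a group in replicate 2. All 17 measured had a higher mean over the later times in replicate 1 (median 1.21 on the log2 scale), and 6 of 17 did in replicate 2 (median -0.02). The 5 macrophage markers summed to 1462 at 0 h and 2098, 3153 and 2544 at 6, 12 and 24 h in replicate 1, and to 2230, 2099, 1795 and 1757 in replicate 2. The 4 neutrophil markers measured summed to 244, 981, 424 and 523 in replicate 1 and to 133, 369, 437 and 741 in replicate 2, higher after 0 h in both. That sum was nearly all S100a8 and S100a9, which keratinocytes also express when activated, with S100a8 at 169.7, 583, 262 and 405 in replicate 1 and 86.6, 264, 307 and 539.9 in replicate 2. Csf3r and Cxcr2, the receptors in the same marker list, did not exceed 20.5 on any of the 8 arrays. The part of these cells in the chemokine values was not tested.

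Of the keratinocyte stress genes, 7 of 12 were at least 2-fold above 0 h at 6 h in both mice (0.657% of all genes), without passing the test. The list of wound keratins, small proline-rich genes and their companions had 12 members measured. All 12 had a positive difference over the later times, none passed the test, and their median difference was 2.44 at 6 h, 1.21 at 12 h and 0.39 at 24 h, against -0.06, -0.05 and -0.03 over all genes. Those at least 2-fold up at 6 h were Krt6b, Krt16, Sprr1b, Sprr2d, Sprr2f, Sprr2h and Sprr2i. In replicate 2 alone 7 were (1.93% of all genes). Krt16, a keratin of activated epidermis, stood at 139, 648, 955 and 155 in replicate 1 and 63.6, 386, 565 and 281 in replicate 2. It peaked at 12 h in both mice and remained above 0 h in each at 24 h. Sprr1b, a cornified envelope gene, stood at 236, 1183, 606 and 121 in replicate 1 and 57.1, 717, 900.4 and 569.5 in replicate 2, and its 24 h value lay below 0 h in replicate 1 only. Krt6b stood at 446, 1024, 490.4 and 194 in replicate 1 and 71.9, 980.1, 1119.8 and 1228 in replicate 2, and here the mice parted: replicate 1 began high and ended lowest at 24 h, while replicate 2 began low and was highest at 24 h. Slpi, a protease inhibitor gene outside the list, stood at 52.5, 398, 718 and 73.5 in replicate 1 and 27.9, 134, 201 and 93.3 in replicate 2.

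Growth factor and matrix genes of wounds had smaller differences. Of 19 measured none passed, 13 had a positive difference, and both 0 h arrays lay below all later ones for 6 (8.39% of all genes). Hbegf, a ligand of the EGF receptor, stood at 74.5, 398, 467 and 143 in replicate 1 and 77.9, 227, 202 and 166 in replicate 2, a difference of 1.67 ± 0.32 that missed the threshold (adjusted p = 0.0606). Timp1, an inhibitor of matrix metalloproteases, stood at 46.7, 271, 238 and 77.9 in replicate 1 and 64.9, 127, 142 and 71.2 in replicate 2. In both genes the values of 6 and 12 h lay above those of 24 h, and those of 24 h above 0 h. Tnc, Fn1 and Postn, genes of the matrix itself, differed from 0 h by 0.61, -0.37 and 0.05, with 0 h and later arrays overlapping in each.

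Immediate early genes, which encode transcription factors and feedback regulators induced within minutes of a stimulus, had 29 members measured, none of which passed. Both 6 h arrays lay above all 6 other arrays for 9 of the 26 with a value on every array (1.71% of all genes): Fos, Fosl1, Egr1, Ier2, Ier3, Nr4a3, Dusp6, Myc and Ccn1. Fos, a subunit of AP-1, stood at 193, 453, 215 and 317 in replicate 1 and 236, 571, 192 and 200.1 in replicate 2. Fosl1, another AP-1 subunit, stood at 17.5, 81.4, 38.4 and 11.8 in replicate 1 and 10.1, 59.1, 29.8 and 14.4 in replicate 2. These were the only 2 at least 2-fold up at 6 h in both mice, and Fos was back near its 0 h level at 12 h while Fosl1 was not. Egr1, a zinc finger factor, stood at 1022, 1569, 1236 and 1249 in replicate 1 and 972, 1498, 1302 and 1231 in replicate 2, or 1.54-fold its 0 h value at 6 h in each mouse. Jun, Junb and Klf4 lacked a value on the 0 h array of low quality.

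**Figure D3:**
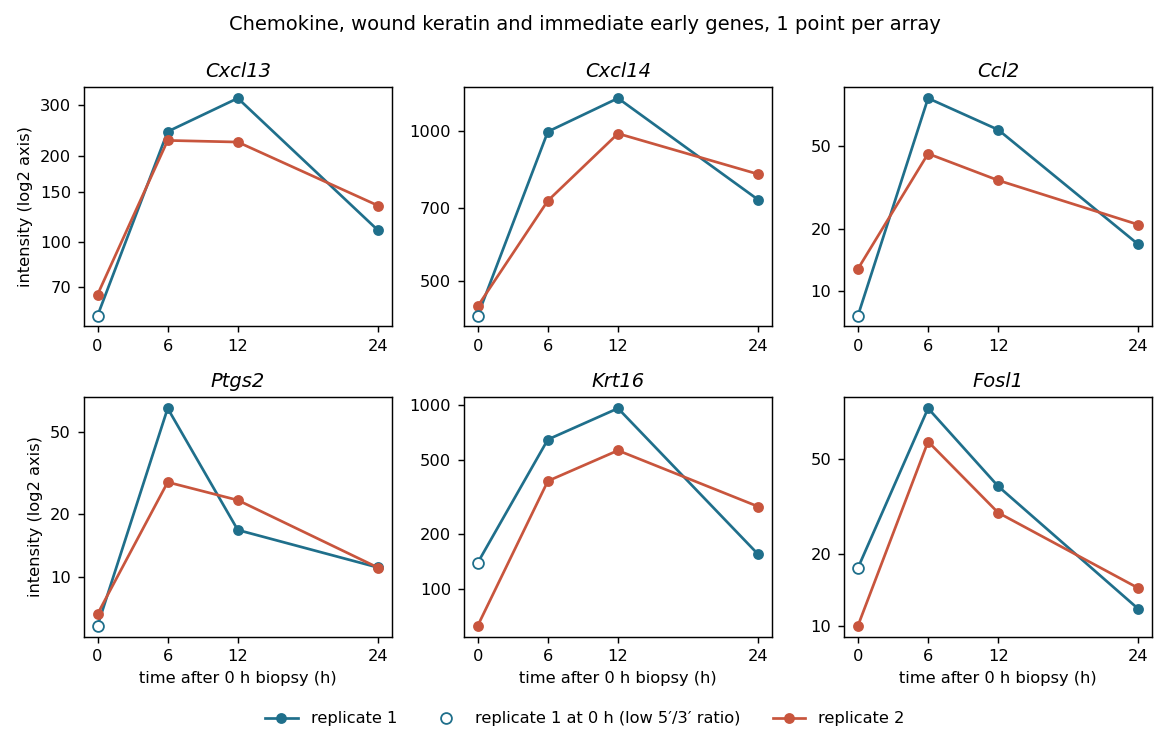
Intensity (log2 axis) against time in hours for Cxcl13, Cxcl14, Ccl2, Ptgs2, Krt16 and Fosl1, 1 line per mouse and 1 point per array, with the 0 h array of low 5′ to 3′ ratio drawn open. Every 6 h and 12 h point lies above its mouse's 0 h point, and all 12 values of 24 h lie below those of 12 h.

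Among the other rises past the test, Atp6v0a4, a subunit gene of the vacuolar proton pump, stood at 17.4, 58.1, 85.3 and 34.4 in replicate 1 and 23.3, 44.4, 54.7 and 42.2 in replicate 2 (difference 1.34 ± 0.21, adjusted p = 0.0363). Ddx49, an RNA helicase gene, stood at 119, 194, 212 and 219 in replicate 1 and 143, 202, 234 and 222 in replicate 2 (difference 0.71 ± 0.12, adjusted p = 0.043). The other probe set for Ddx49, with intensities of 27.6 to 50.5, gave a difference of 0.10 (adjusted p = 0.827). The fifth gene was the one a probe set is annotated to as Mir1949, at 11.9, 44.2, 30.6 and 25.1 in replicate 1 and 13.6, 43.03, 39.9 and 30.5 in replicate 2; such a probe set does not measure the mature microRNA. In all 3 the later arrays lay above both 0 h arrays. Mir1949 exceeded the filter on intensity on 3 later TERT-on arrays and on neither TERT-on 0 h array. It also did so on 2 TERT-off arrays, which were enough for its entry into the test.

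All 15 genes of the skeletal muscle list had a negative difference, with a median of -1.13 against -0.05 over all genes, and 1 of them passed. Of the 14 with a value on every array, all 14 were lower in both mice (37.6% of all genes). Actn3, the alpha-actinin of fast fibres, stood at 1326, 287, 208 and 357 in replicate 1 and 1730.3, 379, 314 and 149 in replicate 2, a difference of -2.49 ± 0.39 (adjusted p = 0.0363). Outside the list, Ampd1, the AMP deaminase of muscle, stood at 285, 85.96, 35.3 and 46.7 in replicate 1 and 508, 102, 82.4 and 39.6 in replicate 2 (difference -2.66 ± 0.31, adjusted p = 0.00765). Phkg1, the catalytic subunit of muscle phosphorylase kinase, stood at 73.7, 16.1, 17.7 and 19.2 in replicate 1 and 92.2, 22.7, 14.9 and 11.1 in replicate 2 (difference -2.32 ± 0.32, adjusted p = 0.0198). In these 3 genes both 0 h arrays were more than 2-fold above every later array. Asb15, a muscle gene of the ankyrin repeat and SOCS box family, stood at 44.2, 4.91, 1.95 and 3.98 in replicate 1 and 50.02, 16.6, 2.09 and 6.09 in replicate 2, and with values under 7.71 raised to it the difference was -2.42 ± 0.41 (adjusted p = 0.0442). Asb15, Phkg1 and 3300002P13Rik passed the filter on intensity only through the 0 h arrays, where they were high, so they could enter the test only by differing. Prkag3, the gene of a muscle subunit of AMP kinase, differed by -1.28 ± 0.21 (adjusted p = 0.0421). It exceeded the filter on 0 h arrays alone, those of the TERT-on and TERT-off cohorts. The 2 TERT-off arrays were enough for its entry, so it did not need the TERT-on 0 h arrays.

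Over the list, both 0 h arrays lay above all later ones for 9 of the 14 with a value on every array (14.5% of all genes), and 8 were at least 2-fold lower in both mice (0.992% of all genes). In replicate 2 alone 0 h was above all later arrays for 13 of 14 (26.7% of all genes) and 10 were at least 2-fold lower (2.79%). Pvalb, parvalbumin of fast fibres, stood at 3290.0, 1242, 786 and 1610.3 in replicate 1 and 5319, 1516, 1147 and 788 in replicate 2. Atp2a1, the calcium pump of fast fibres, stood at 3734, 983, 947 and 2252 in replicate 1 and 4396, 1890.2, 1096 and 1530.3 in replicate 2. Acta1, skeletal actin, stood at 5993, 3456, 3785 and 6498 in replicate 1 and 8096, 6334, 4437 and 5864 in replicate 2, with the 24 h array of replicate 1 above its own 0 h array. The 5 muscle markers summed to 20990, 10640, 10480 and 17470 in replicate 1 and to 21750, 17630, 13120 and 13080 in replicate 2, so the marker sum was lower at 6 and 12 h in both and nearer to 0 h at 24 h in replicate 1. Ckm had no value at 0 h in replicate 2, so the sum of 21750 lacks it while the later sums hold it, and the fall in replicate 2 is understated. In the TERT-off cohort the list's median difference was 0.28. The part that the muscle content of the biopsies had in these values was not tested.

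The remaining falls past the test were of genes without a shared list. Slc5a3, the myo-inositol transporter induced by osmotic stress, stood at 548, 312, 247 and 309 in replicate 1 and 559, 292, 246 and 236 in replicate 2 (difference -1.03 ± 0.14, adjusted p = 0.0165). The other probe set for Slc5a3, with intensities of 18.97 to 67.3, gave a difference of -0.04 (adjusted p = 0.972). Mlxipl, which encodes the carbohydrate response factor ChREBP, stood at 136, 73.7, 54.4 and 86.9 in replicate 1 and 198, 85.3, 59.8 and 58.8 in replicate 2 (difference -1.26 ± 0.20, adjusted p = 0.0386). Smtnl2, a smoothelin-like gene, and 3300002P13Rik differed by -1.55 ± 0.25 and -2.29 ± 0.35 (adjusted p = 0.0386 and 0.0352). The other 6, named here outside the rule of size, were Thap2, Klhl24, Banp, Etl4, Wfdc21 and Tead1, with differences from -1.17 for Thap2 to -0.66 for Tead1, a factor that partners with YAP. Klhl24 and Etl4 have 4 probe sets each, of which 1 passed. Their probe sets ranged from -1.10 to 0.18 for Klhl24 and from -0.87 to 0.12 for Etl4.

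Several glucocorticoid-responsive genes had their highest values before the injection. Of 22 measured none passed, the median difference was -0.22, and both 0 h arrays lay above all later ones for 6 of the 21 with a value on every array (14.5% of all genes). Zbtb16, which encodes the zinc finger factor PLZF, stood at 153, 64.4, 26.00 and 64.2 in replicate 1 and 262, 71.04, 24.7 and 58.02 in replicate 2. Tsc22d3, the gene of GILZ, stood at 727, 247, 151 and 362 in replicate 1 and 931, 372, 144 and 255 in replicate 2. Fkbp5, a cochaperone of the receptor, stood at 253, 149, 113 and 135 in replicate 1 and 325, 183, 108 and 124 in replicate 2. In all 3 both mice were highest at 0 h and lowest at 12 h, and the differences over the later times, -2.09 ± 0.42, -1.78 ± 0.38 and -1.10 ± 0.28, had adjusted p of 0.0697, 0.072 and 0.0794. Klf9, a factor gene induced by the receptor, had the same highest and lowest times in both mice, with 1944, 1305, 1259 and 1664 in replicate 1 and 2711, 1505, 889 and 1273 in replicate 2. Both 12 h arrays lay below all other arrays for 5 of the 21 (3.04% of all genes): these 4 and Nfkbia. Sgk1, a kinase gene, had the other order, with 951, 1207, 1578 and 973 in replicate 1 and 892, 1153, 1097 and 1229 in replicate 2 and both 0 h arrays lowest. In the TERT-off cohort the list's median was 0.46, and for none of its members did the change differ between cohorts past the threshold.

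**Figure D4:**
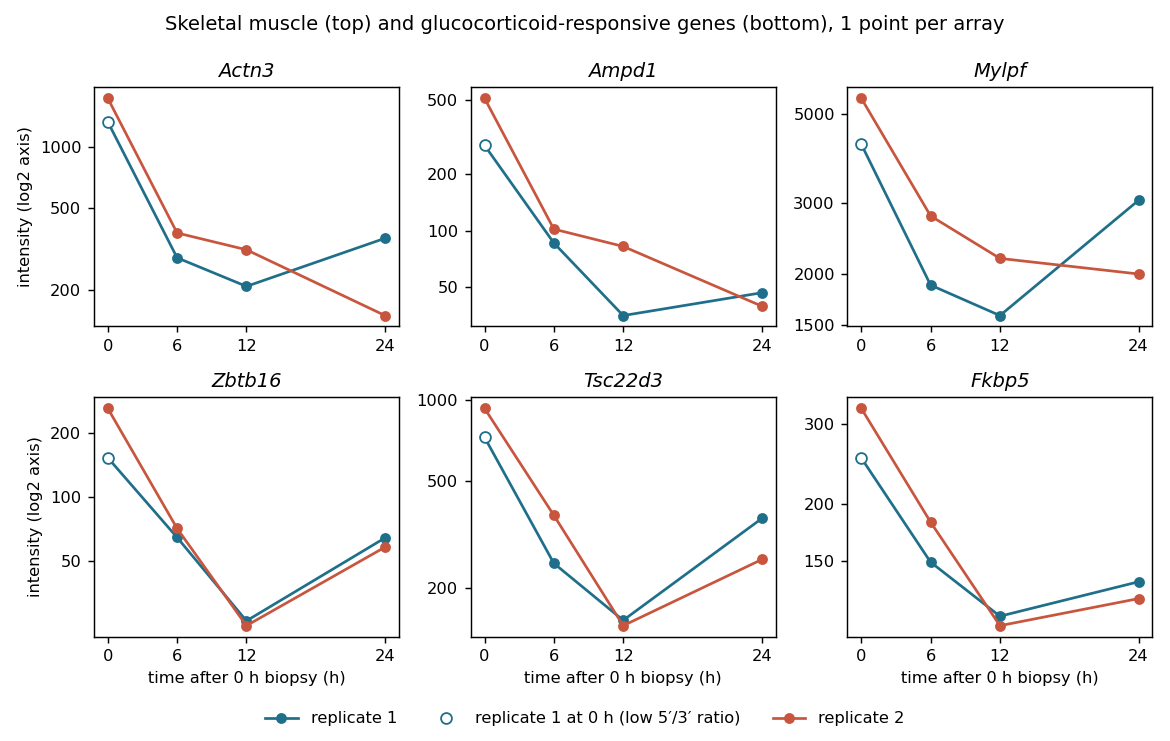
Intensity (log2 axis) against time in hours for the muscle genes Actn3, Ampd1 and Mylpf and the glucocorticoid-responsive genes Zbtb16, Tsc22d3 and Fkbp5, 1 line per mouse and 1 point per array, with the 0 h array of low 5′ to 3′ ratio drawn open. Both mice are highest at 0 h in every panel, and the glucocorticoid-responsive genes are lowest at 12 h in both.

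Of 19 repressor and output genes of the clock, 10 had their lowest values at 12 h in both mice. The comparison of 12 h with 0 and 24 h sets 1 time of day against the opposite one, and it does not rest on the 0 h arrays alone. Both 12 h arrays lay below all 6 other arrays for 7 of 9 repressor genes of the clock loop and 3 of 10 output genes, 10 of 19 in all (3.04% of all genes): Per1, Per2, Per3, Cry2, Nr1d1, Nr1d2, Ciart, Dbp, Tef and Hlf. The median difference of 12 h from the mean of 0 and 24 h was -0.85 for the repressors and -0.24 for the outputs, against -0.03 over all genes. It was -1.09 for the skeletal muscle list and 1.00 for the wound keratin list, so a difference of this size was not particular to the clock. None of the 19 passed that test, with adjusted p of 0.0683 to 0.566 among the 10.

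Dbp, an output factor of the PAR bZIP family, had the widest range. It stood at 74.5, 65.5, 24.1 and 303 in replicate 1 and 97.1, 99.8, 23.7 and 204 in replicate 2. Its 12 h values were the lowest and nearly equal in the mice, and its 24 h values were the highest, above 0 h in both. From 12 to 24 h it differed by 3.38 ± 0.42 (adjusted p = 0.0727). Tef, of the same family, stood at 440.2, 264, 162 and 625 in replicate 1 and 449, 362, 150.0 and 407 in replicate 2. Hlf, also of this family, stood at 81.4, 44.8, 37.9 and 99.4 in replicate 1 and 56.5, 55.9, 29.5 and 72.2 in replicate 2. In both genes the 24 h values lay near or above those of 0 h. Per3, a repressor subunit, stood at 117, 73.3, 41.1 and 218 in replicate 1 and 104, 90.1, 44.3 and 133 in replicate 2. Nr1d1, which encodes the nuclear receptor REV-ERB alpha, stood at 72.3, 28.6, 22.7 and 69.9 in replicate 1 and 71.3, 34.96, 23.3 and 54.3 in replicate 2. Nr1d2, the gene of REV-ERB beta, stood at 634, 287, 142 and 553 in replicate 1 and 470.4, 334, 171 and 348 in replicate 2. In both genes the 6 h values lay between those of 0 and 12 h, and the 24 h values were at 0.74 to 0.97 of 0 h. Nr1d1 was the only clock gene to pass a test, at 12 h against 0 h (-1.64 ± 0.24, adjusted p = 0.0397), and this call was kept in 6 of 19 alternatives. It was lost with the replicate block as a fixed term, without a block, on the 8 TERT-on arrays alone, with no filter, and on leaving out any of the arrays other than 0 h of replicate 2.

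Per1 and Per2 had smaller ranges. Per1 stood at 184, 187, 106 and 159 in replicate 1 and 259, 156, 90.8 and 131 in replicate 2. Per2, another repressor subunit, stood at 31.4, 35.4, 23.6 and 34.5 in replicate 1 and 24.9, 38.2, 14.8 and 35.5 in replicate 2. In both genes each mouse was lowest at 12 h. Cry2, a cryptochrome gene, stood at 137, 86.2, 59.2 and 116 in replicate 1 and 103, 96.3, 61.6 and 86.1 in replicate 2. Ciart, a repressor of CLOCK and BMAL1, stood at 39.3, 39.8, 31.5 and 60.1 in replicate 1 and 44.1, 43.6, 34.5 and 55.99 in replicate 2. These 2 genes were also lowest at 12 h in both mice. Cry1, the other cryptochrome gene, differed, with 129, 178, 158 and 133 in replicate 1 and 120.3, 187, 174 and 172 in replicate 2 and both 0 h arrays lowest. Of the activators, Npas2, a partner of BMAL1, stood at 26.7, 6.19, 22.4 and 10.4 in replicate 1 and 30.9, 10.1, 17.9 and 6.50 in replicate 2. It was high at 0 h and 12 h and low at 6 and 24 h in both mice. Arntl, the gene of BMAL1, was highest at 12 h in each mouse, with 125, 82.3, 149 and 84.7 in replicate 1 and 111, 88.1, 117 and 85.5 in replicate 2. Clock, its partner's gene, was highest at 0 h in each, with 202, 117, 166 and 136 in replicate 1 and 165, 152, 148 and 114 in replicate 2.

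At least 2-fold from 12 to 24 h in both mice were 6 of the 19 (0.279% of all genes), namely Nr1d1, Nr1d2, Per3, Dbp, Tef and Hlf. These values do not involve the 0 h array of low quality. In the TERT-off cohort, injected with doxycycline and biopsied at the same hours, both 12 h arrays lay below all others for 7 of the 19 (1.87% of all genes), and for none did the cohorts differ past the threshold. Clock time of the biopsies is not given in the sources used here, so no phase was assigned.

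**Figure D5:**
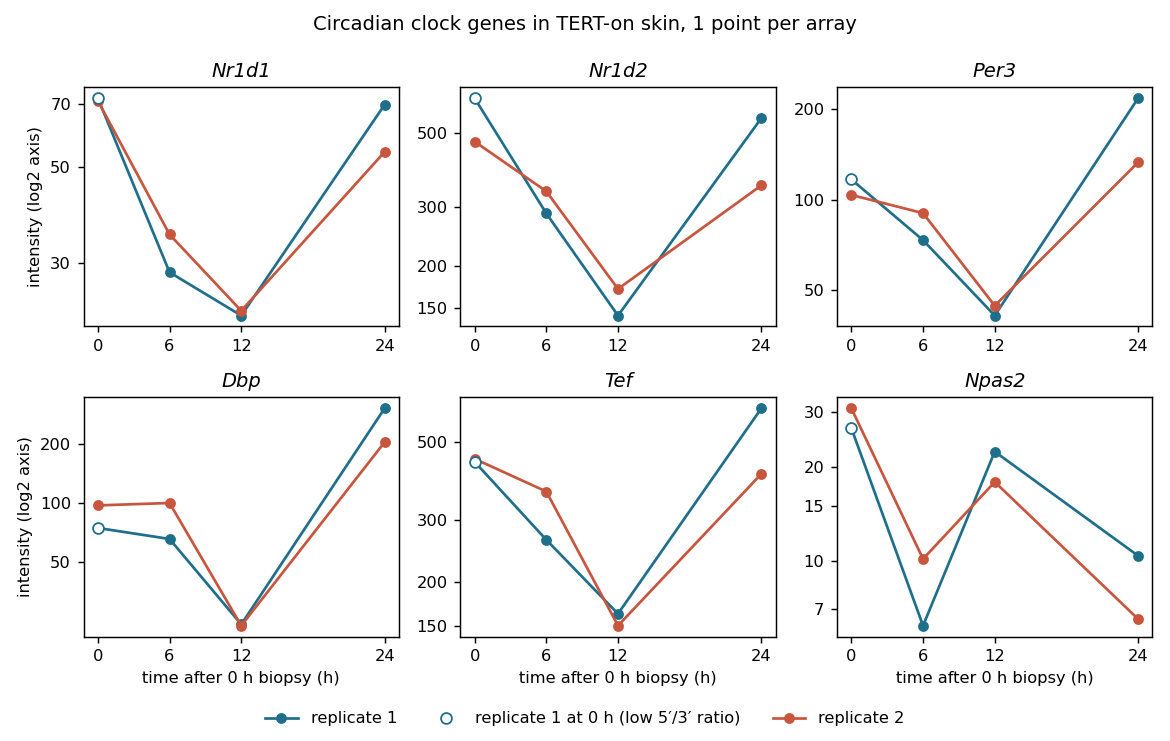
Intensity (log2 axis) against time in hours for Nr1d1, Nr1d2, Per3, Dbp, Tef and Npas2, 1 line per mouse and 1 point per array, with the 0 h array of low 5′ to 3′ ratio drawn open. The first 5 genes are lowest at 12 h in both mice and higher again at 24 h, and Npas2 is lowest at 6 or 24 h.

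Promoter sequence was searched for the elements that clock factors are known to read: the E-box CACGTG, which CLOCK and BMAL1 bind and which reads the same on both strands, and a D-box, TTATGTAA, which DBP, TEF and HLF bind, taken on both strands. The motifs share no overlap. The windows, from RefSeq on GRCm38.p6, ran from 250 bases before to 50 after each start, and 20 of 25 clock genes listed had one. CACGTG occurred in 7 of the 20 (8.09% of all 27025 genes with a window): Per1, Cry1, Ciart, Bhlhe41, Tef, Tspan4 and Coq10b. TTATGTAA occurred in 2 (1.11% of all genes), Per3 and Coq10b. A match is a description of letters and not a site of binding, and no match, as for Nr1d1 and Dbp, says only that these letters are not in the window. The windows of 3 genes that were lowest at 12 h are shown for how the elements lie before their start sites, with the motif in capitals; they are chr15:81802423-81802722 on the plus strand for Tef, chr11:69098699-69098998 on the plus strand for Per1 and chr4:151044616-151044915 on the minus strand for Per3.
Tef: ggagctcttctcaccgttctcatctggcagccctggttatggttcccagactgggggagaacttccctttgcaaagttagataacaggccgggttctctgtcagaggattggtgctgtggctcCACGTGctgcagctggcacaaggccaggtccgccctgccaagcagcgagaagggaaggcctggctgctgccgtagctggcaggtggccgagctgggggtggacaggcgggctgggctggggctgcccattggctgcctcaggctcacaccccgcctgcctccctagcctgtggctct
Per1: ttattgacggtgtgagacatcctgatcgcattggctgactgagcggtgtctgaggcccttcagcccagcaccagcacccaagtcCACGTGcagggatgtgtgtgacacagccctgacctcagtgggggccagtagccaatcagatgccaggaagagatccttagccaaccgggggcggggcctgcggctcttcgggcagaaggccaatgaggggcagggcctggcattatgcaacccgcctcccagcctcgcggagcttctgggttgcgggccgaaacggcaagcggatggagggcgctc
Per3: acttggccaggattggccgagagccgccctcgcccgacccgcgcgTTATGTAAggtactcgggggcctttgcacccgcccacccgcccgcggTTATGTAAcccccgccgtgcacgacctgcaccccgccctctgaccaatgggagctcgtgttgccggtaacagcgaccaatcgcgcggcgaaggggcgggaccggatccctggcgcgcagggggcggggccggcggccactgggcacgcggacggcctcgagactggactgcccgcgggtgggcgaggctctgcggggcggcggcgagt
The E-box began 127 bases before the start in Tef and 166 bases before it in Per1, and the 2 D-boxes of Per3 began 205 and 158 bases before its start. Tef and Per1 have 2 windows each in the table, of which 1 is shown.

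Of 13 cholesterol synthesis genes measured, targets of SREBP2, 12 had a positive difference, with a median of 0.38 and a highest value of 0.69, and none passed. Both 0 h arrays lay below all later ones for 8 of 13 (8.39% of all genes), and in replicate 2 alone 0 h was below all later arrays for 11 (18.3%). Sqle, squalene epoxidase, stood at 874, 1047, 1097 and 1037 in replicate 1 and 771, 1111, 1057 and 1041 in replicate 2, with no overlap of the groups. Mvd, mevalonate decarboxylase, stood at 82.97, 149, 165 and 145 in replicate 1 and 114, 155, 145 and 182 in replicate 2. The mean of the later times was above 0 h in both mice for 10 of the 13 (24.2% of all genes). In the TERT-off cohort the list's median was -0.13.

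Of 10 genes measured of the dermal papilla, the mesenchymal cluster that instructs the follicle, 9 had a negative difference, with a median of -0.56, none passed, and both 0 h arrays lay above all later ones for 6 (14.5% of all genes). Lepr, the leptin receptor, stood at 263, 115, 94.4 and 234 in replicate 1 and 264, 194, 135 and 93.1 in replicate 2. Corin, a protease gene of the papilla, stood at 187, 112, 70.8 and 132 in replicate 1 and 146, 108, 98.1 and 107 in replicate 2. In replicate 1 both were higher at 24 h than at 6 and 12 h, and in replicate 2 Lepr was lowest at 24 h.

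Hair and pigment genes had differences of opposite sign in the mice. Over the later times the median difference of the hair shaft list was -0.89 in replicate 1 and 2.02 in replicate 2, and that of the melanocyte list -0.39 and 0.47, with 10 of 11 melanocyte genes lower in replicate 1 and 11 of 11 higher in replicate 2. The hair shaft median of replicate 1 rests on 9 of the 12 genes measured, since the others had no value on its 0 h array, and that of replicate 2 on all 12. The 4 hair shaft markers summed to 6777, 11990, 6266 and 2502 in replicate 1 and to 3522, 13910, 14900 and 15900 in replicate 2. Both sums were thus higher at 6 h than at 0 h, and at 24 h replicate 1 lay below its 0 h sum and replicate 2 above it. A marker without a value is left out of a sum, so the 0 h sum of replicate 1 may hold fewer than 4 markers and its rise at 6 h may be overstated. Krt33a, a keratin of the hair cortex, stood at 3910.0, 4197, 2258 and 996 in replicate 1 and 1359, 4598, 4760.3 and 5021 in replicate 2. Adipocyte and fibroblast lists had lower values after 0 h in replicate 2 and little change in replicate 1, with medians of 0.03 and -0.04 in replicate 1 and -0.84 and -0.71 in replicate 2. With 1 array per mouse and time, none of these differences between mice could be tested.

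Between the later times the 0 h array of low quality plays no part. From 6 to 12 h, 1 gene was at least 2-fold higher in both mice (0.00797% of all genes), H2-Q5, a class I MHC gene with closely similar relatives, and 8 were lower (0.0637%), namely Dbp, Edn3, Fos, Lep, Mylk4, Tnfaip6, Trim63 and Zbtb16. From 12 to 24 h, 35 were at least 2-fold higher in both and 13 lower (0.104%). The 13 included Krt16, Slpi, Lce3f, Epgn, Fosl1 and Npas2, among them genes of activated keratinocytes described above. The 35 included the 6 clock genes above, Zbtb16, and the muscle genes Tcap, Mb, Myh1, Chrna1 and Trim63. None of these passed the test, and they are named after their values were seen. Trim63, a ubiquitin ligase gene of muscle wasting, stood at 223, 253, 80.6 and 560.2 in replicate 1 and 286, 423, 162 and 433 in replicate 2, lowest at 12 h in both mice.

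Hox genes, which mark position along the body axis, were among those high at 24 h, and the following sets were likewise chosen after their values were seen. Of 7 genes of the posterior Hox groups measured, both 24 h arrays lay above all other arrays for 4 (3.28% of all genes), and 4 were at least 2-fold above 0 h in both mice (0.16% of all genes). Hoxa9 stood at 27.03, 34.6, 80.8 and 261 in replicate 1 and 50.1, 87.8, 45.98 and 184 in replicate 2. Hoxa10 stood at 5.18, 8.28, 16.04 and 51.3 in replicate 1 and 7.96, 13.2, 4.08 and 38.6 in replicate 2. The median difference of 24 h from 0 h was 1.31 for these 7 and -0.13 for the 14 genes of the anterior and middle groups. Of those 14, 2 also had both 24 h arrays above all other arrays. Myogenic factor genes also stood high at 24 h. Myog, which encodes myogenin, stood at 5.01, 6.86, 6.81 and 156 in replicate 1 and 16.7, 40.7, 12.2 and 118 in replicate 2. Myod1, another myogenic factor gene, stood at 13.7, 5.39, 14.9 and 66.9 in replicate 1 and 26.2, 24.8, 21.6 and 49.3 in replicate 2. Myf6 stood at 77.4, 30.2, 21.3 and 190.5 in replicate 1 and 129.9, 133, 58.3 and 129 in replicate 2, which in replicate 2 is no higher at 24 h than at 0 h. None of these genes passed a test.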

How the data were processed

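RNA of 16 skin biopsies was hybridised to Affymetrix mouse whole-genome arrays. The authors deposited linear intensities, which they had normalized across arrays and summarised by probe set in dChip; the table holds 45101 probe sets, of which 34958 carried 1 gene symbol, 932 several and 9211 none. Low values were set to a floor, the 20th percentile of all values (7.71), log2 was taken, and probe sets above the table's median (34.4) on at least 2 arrays were kept. Each gene was read from its brightest probe set, by the mean over 16 arrays. limma 3.58.1 (R 4.3.3, statmod 1.5.0) fitted 8 group means on all 16 arrays, with the mouse as a random block (correlation 0.0728) and an intensity trend; p-values are two-sided and were adjusted by Benjamini-Hochberg over 25563 probe sets, at a threshold of 0.05. Arrays of 1 replicate number were taken as 1 mouse, which the labels do not state outright. With 2 such mice per cohort, p-values measure the spread between these arrays.

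Genes were named as the 10 largest rises and falls past the test over 6 to 24 h that moved the same way in both mice, the 5 largest at each time, up to 4 members of each list past a test, Tert and Krt5, and any clock, immediate early or glucocorticoid gene; other genes with values were chosen after their values were seen. The members and the 41 gene lists were chosen with earlier results of these data known. Of 596 list members 517 were measured. The counts for replicate 2 alone at 0 h were added after seeing the data. Alternatives covered the block, the arrays in the fit, floor, filter, normalization, trend, array weights and each array and mouse left out. Promoter windows are of RefSeq, GRCm38.p6. Figures were drawn with matplotlib 3.10.9.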

Additional observations from a re-analysis of the deposited data

Results flagged for a closer look

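Cxcl13 changed less in the TERT-on than in the TERT-off cohort. It rose in both, by 1.70 over the later times in TERT-on mice and by 3.97 in TERT-off mice, and the difference between cohorts was -2.27 on the log2 scale (limma, adjusted p = 0.036). In the TERT-off cohort its intensity was 78.3 and 77.0 at 0 h and 865 to 1714 later, with 1 value missing at 12 h, against 110 to 317 at the later times here.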

How the results depend on the processing

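Of 37 gene results past the test, each under its comparison, all kept their direction under the 19 alternatives, and none kept the call without replicate 1 at 0 h or without the mouse of replicate 1. The calls were kept in 3 (Tert at 24 h) to 17 of the 19, with a median of 9. Over 6 to 24 h, Cxcl13 and Spred1 kept theirs in 17, 7 of the 23 genes in 10 or more, and Asb15, Fam98b, Klhl24, Mlxipl and Wfdc21 in 5. Of the 37, 19 kept the call with the replicate block as a fixed term and 2 on the 8 TERT-on arrays alone. The replicate numbers were not shown to pair the samples (correlations of the mice's deviations between times -0.147 to 0.331); with the replicate block as a fixed term the 44 probe sets became 31, the 16 at 12 h became 10, and 1 passed for 12 h against 0 and 24 h. Without a replicate block the 44 became 26, with array weights 14 and on the 8 TERT-on arrays alone 11. On those 8 arrays no probe set passed at 6, 12 or 24 h against 0 h (9, 16 and 8 in the fit of all arrays). With no filter on intensity these were 32, 31 and 28, and the comparisons of 12 h with 6 h, 24 h with 12 h and 12 h with 0 and 24 h, which had 0, gave 17, 15 and 14; with array weights the last 2 gave 2 and 6. Leaving out 1 array or mouse gave counts of 0 to 1124 over 6 to 24 h, 0 to 536 at 6 h, 0 to 764 at 12 h, 0 to 580 at 24 h, 0 to 3 between 6 and 12 h, 0 to 3 between 12 and 24 h and 0 to 99 for 12 h against 0 and 24 h. Over 6 to 24 h the count was 15 without replicate 1 at 6 h or at 12 h, 26 without replicate 2 at 12 h, 14 without replicate 2 at 24 h, 0 without the mouse of replicate 1 and 217 without that of replicate 2. The list medians kept their sign: without 1 array or mouse the clock outputs ranged from -0.31 to -0.24 (-0.22 with arrays centred on their medians), the glucocorticoid list from -0.40 to -0.16, cytokines and chemokines from 0.24 to 0.89, skeletal muscle from -1.31 to -0.96 and wound keratins at 6 h from 1.40 to 2.74. The causes were not tested. With 2 arrays per group, the number of arrays limits the precision.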

Other observations

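Some genes outside the lists described above also stood highest at 24 h, and were chosen after their values were seen. Gadd45a, a stress and growth arrest gene, stood at 109, 129, 105 and 290.0 in replicate 1 and 123, 136, 128 and 310.3 in replicate 2 at 0, 6, 12 and 24 h, with the 24 h array more than 2-fold above the same mouse's other arrays. Cirbp, the cold-inducible RNA-binding protein gene, stood at 173, 173, 302 and 514 in replicate 1 and 136, 232, 265 and 419 in replicate 2, highest at 24 h in both. Neither passed a test among the TERT-on arrays. In the TERT-off cohort Cirbp differed by 1.795 over the later times (limma, adjusted p = 0.0178) and Gadd45a by 0.12 (adjusted p = 0.908).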
